A study of Mus musculus with 20 samples.

Results

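Liver mRNA of 9 human genes and their 9 mouse counterparts was examined after knockdown of HuR, an RNA-binding protein encoded by ELAVL1 in humans and Elavl1 in mice. The genes are CD24 (mouse Cd24a), ALCAM, NID1, PERP, EPCAM, KRT7, KRT19, SOX9 and SPP1, each found once by its symbol among 60607 human and once among 55335 mouse genes listed. They were chosen by their symbols, and 4 of them (CD24, ALCAM, NID1 and PERP) were selected on a lower human level with HuR knockdown in humanized mouse livers. The humanized comparison is therefore given for all 9 human genes as a description without a test, and only the comparison in wild type (WT) mice was tested. The lower mouse Perp in WT livers was already known when the genes were chosen, so its test is not independent of that choice.

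Humanized mice were TK-NOG mice, immune-deficient NOG animals with a herpes simplex virus thymidine kinase transgene that the mouse albumin promoter drives in liver. They received ganciclovir at 25 mg/kg when 8 to 9 weeks old, which removes cells with the transgene, and then commercial cryopreserved human hepatocytes through the spleen. Those with more than 0.5 mg/ml of human albumin in serum, measured 8 to 12 weeks after transplantation, were used. WT mice were male C57BL/6 animals bought at 8 weeks of age. All mice, controls included, carried an adenovirus at 2000000000 pfu per mouse by vein, and livers were taken on day 7 after a 4 h fast. HuR KD mice had a virus with an shRNA against HuR (human in humanized mice, mouse in WT mice) and control mice had a LacZ virus, with 4 livers in each humanized group and 6 in each WT group. Total RNA of whole liver was sequenced by strand and is given as transcripts per 1000000 (TPM), which corrects for gene length and adds up to the same total in each library. The hepatocytes came from few donors, and host, shRNA and read length all differ between the humanized and the WT set, so these cannot be told apart from the species.

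The reads behind each value were recovered from the steps of the TPM. Humanized libraries held 2670469 to 20302454 reads on human genes, and WT libraries held at least 12960373 reads on mouse genes except control 2, which held 1423985. In humanized livers HuR KD 4 and control 2 stood apart: genes of the mitochondrial genome took 51.8 and 51.7% of their TPM, against 29 to 38.5% in the other 6. Human hepatocyte markers were abundant in the humanized livers, where 15 hepatocyte markers summed to 56598 to 102851 TPM, with 49713 TPM of ALB on average. Human markers of endothelial and stellate cells were low, with at most 3.58 TPM summed over 15 endothelial and at most 10.1 TPM over 15 stellate cell markers. The mouse mRNA of the humanized livers, including that of the host's own bile ducts, was not analysed here.

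HuR binds U-rich and AU-rich stretches in the 3′ untranslated regions (UTRs) of many mRNAs and is known to affect their stability and translation. Bile ducts of the liver are lined by cholangiocytes, which are known for keratins such as KRT7 and KRT19, the cell-surface protein EPCAM, the transcription factor SOX9 and the secreted phosphoprotein SPP1 (osteopontin). Liver progenitor cells share several of these, and CD24 is a small surface glycoprotein found on both. ALCAM is an adhesion molecule of the immunoglobulin family, NID1 (nidogen) links laminin to collagen IV in basement membranes, and PERP is a tetraspan protein of desmosomes and a target of p53.

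The knockdown itself was seen in both sets. Human ELAVL1 (ENSG00000066044.15) stood at 4.05, 2.37, 3.54 and 3.90 TPM in the HuR KD livers and at 5.76, 4.77, 6.17 and 5.99 TPM in the controls. Mouse Elavl1 (ENSMUSG00000040028.10) had a median of 4.97 TPM (range 3.72 to 5.62) with HuR KD and of 9.49 TPM (8.58 to 10.7) in controls. The groups did not overlap in either set, and the HuR KD means were at 61.0% (ELAVL1) and 51.7% (Elavl1) of the control means. On the log2(TPM + 1) scale the fold changes were −0.59 ± 0.17 (standard error; limma adjusted p = 0.214; exact permutation p = 0.0286) and −0.83 ± 0.09 (limma adjusted p = 0.00105; exact permutation p = 0.00216). Both exact p-values, two-sided here and below, are the smallest that 4 against 4 and 6 against 6 livers allow.

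In humanized livers the human mRNA of the surface and matrix genes CD24, NID1, ALCAM and PERP was lower in every HuR KD liver than in every control, at 12.8, 36.8, 45.5 and 49.1% of the control mean. Of all 12738 human genes with a mean of at least 1 TPM, 5.03% showed the same pattern, which is printed for scale only, since this contrast chose these 4 genes. In bulk liver, fewer cells of a type and less RNA per cell cannot be told apart. The dot plots of the human genes show every liver.

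CD24 (ENSG00000272398.6) was at 4.35, 5.63, 5.93 and 4.83 TPM in the HuR KD livers, from 21 to 166 reads. The controls were at 47.6, 21.3, 60.5 and 32.3 TPM, from 163 to 723 reads. The HuR KD livers lay within a narrow band (5.19 ± 0.724 TPM, SD, n = 4), while the controls varied 2.84-fold among themselves (40.4 ± 17.2 TPM, SD, n = 4). The difference on the log2(TPM + 1) scale was −2.65 ± 0.29 (standard error), the widest of the 9 human genes on that scale. With a pseudocount of 0.1 it was −2.84, close to the −2.80 of SPP1. CD24 has processed copies elsewhere in the genome, and how the counting divided reads among them is not given in the sources used here, so its level is less certain than those of the other genes.

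NID1 (ENSG00000116962.15) was at 11.9, 10.5, 14.5 and 11.5 TPM with HuR KD. The controls were at 36.0, 33.8, 21.9 and 40.1 TPM, with control 3 the lowest. The means were 12.1 ± 1.67 and 32.9 ± 7.83 TPM (SD, n = 4 each), and the log2 difference was −1.35 ± 0.20 (standard error).

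ALCAM (ENSG00000170017.12) was at 17.7, 14.8, 14.8 and 16.4 TPM with HuR KD. Its controls were at 41.5, 28.7, 30.5 and 39.4 TPM, so the gap between the groups was 28.7 against 17.7 TPM. The means were 15.9 ± 1.39 and 35 ± 6.37 TPM (SD, n = 4 each), with a log2 difference of −1.07 ± 0.16 (standard error).

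PERP (ENSG00000112378.12), the most abundant of the human genes in either group, was at 51.6, 46.5, 49.3 and 45.6 TPM with HuR KD. The controls were at 117, 58.9, 108 and 109 TPM. Control 2, one of the pair with the high mitochondrial share, lay far below the other 3 and not far above the highest HuR KD liver. The means were 48.2 ± 2.75 and 98.2 ± 26.5 TPM (SD, n = 4 each), with a log2 difference of −0.96 ± 0.21 (standard error).

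**Figure D1:**
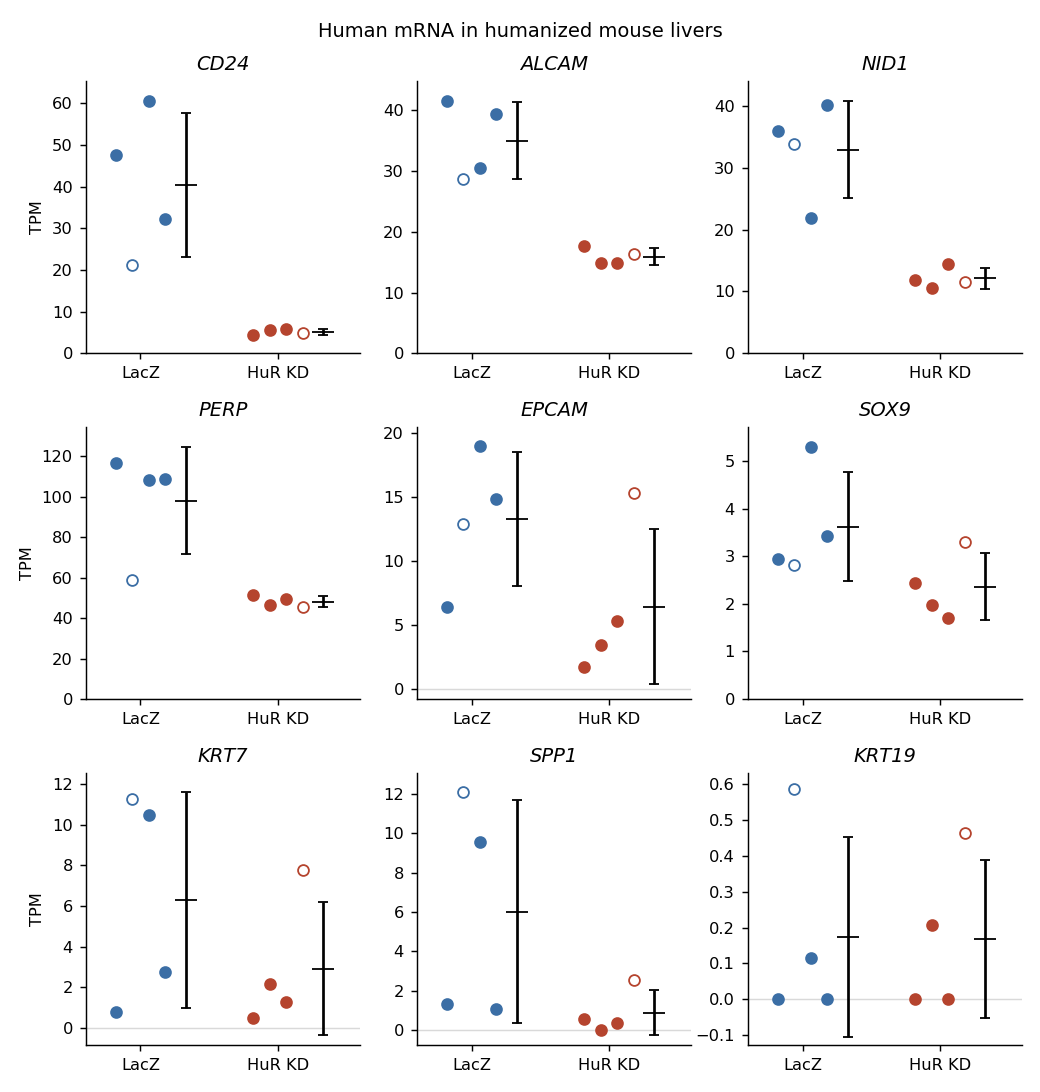
TPM of the 9 human genes in humanized mouse livers, 1 dot per liver (blue LacZ control, red HuR KD, 4 each; bars are mean and SD; open dots are control 2 and HuR KD 4, the pair with the high mitochondrial share). CD24, ALCAM, NID1 and PERP show no overlap of the groups, and KRT7, SPP1 and KRT19 spread widely within each group.

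The ductal genes proper were lower in human mRNA than these 4 in controls, and their groups overlapped. EPCAM (ENSG00000119888.10) was at 1.78, 3.46, 5.31 and 15.3 TPM with HuR KD and at 6.43, 12.9, 19 and 14.8 TPM in controls. Only HuR KD 4 among the HuR KD livers reached the range of the controls. The log2 difference was −1.17 ± 0.51 (standard error).

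SOX9 (ENSG00000125398.8) was at 2.45, 1.97, 1.70 and 3.30 TPM with HuR KD and at 2.94, 2.83, 5.29 and 3.43 TPM in controls, a log2 difference of −0.46 ± 0.22 (standard error; −0.30 without control 3). Here too HuR KD 4 was the one HuR KD liver inside the range of the controls.

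KRT7 (ENSG00000135480.16) was at 0.481, 2.18, 1.30 and 7.76 TPM with HuR KD and at 0.772, 11.2, 10.5 and 2.76 TPM in controls. SPP1 (ENSG00000118785.14) was at 0.552, 0, 0.372 and 2.56 TPM with HuR KD and at 1.33, 12.1, 9.55 and 1.06 TPM in controls. The 0 of HuR KD 2 allows up to 0.626 TPM, the worth of 3 reads there, a limit that covers counting error only. For both genes controls 2 and 3 were the highest livers and HuR KD 4 the third, and the groups overlapped. Their log2 differences were −0.83 ± 0.71 and −1.61 ± 0.67 (standard error). That of KRT7 moved to −0.44 and −0.48 without control 2 or 3, to −0.47 without HuR KD 1, and to −1.37 and −1.32 without control 1 or HuR KD 4, and that of SPP1 was −2.80 with a pseudocount of 0.1. SPP1 reached a mean of 1 TPM through its controls, since the HuR KD mean was 0.872 TPM.

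KRT19 (ENSG00000171345.13) was all but undetected, with no read in 4 of the 8 livers, and did not reach a mean of 1 TPM. Its highest values, 0.463 TPM in HuR KD 4 and 0.585 TPM in control 2, rest on 12 and 15 reads in the most deeply sequenced libraries. The zeros allow between 0.277 and 0.823 TPM.

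Without HuR KD 4, one of the livers left out in turn and singled out here after its values were seen, EPCAM, SOX9 and SPP1 also lay below all controls in the 3 remaining HuR KD livers, which made 7 of 9 genes. EPCAM was then at 26.5%, SOX9 at 56.3% and SPP1 at 5.12% of the control mean. Without both HuR KD 4 and control 2 the count was again 7. Among all human genes tested the pattern then held for 8.0% without HuR KD 4 and 14.5% without both. KRT7 and KRT19 overlapped in each case. CD24 stood at 13.1% of the control mean without HuR KD 4 and at 11.3% without both, ALCAM at 45.1 and 42.5%, NID1 at 37.3 and 37.7%, and PERP at 50.1 and 44.2%.

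Human LYZ, which encodes lysozyme and stands in the list of macrophage markers, also varied widely between livers. It was at 7.27, 6.32, 10.6 and 67.3 TPM with HuR KD and at 18.5, 142, 52.9 and 29.2 TPM in controls. HuR KD 4 and controls 2 and 3, the livers with the most KRT7 and SPP1, were also the 3 with the most LYZ, which was not so for EPCAM, SOX9 or KRT19. CTSS, which encodes cathepsin S and was the other macrophage marker past the filter, had another pattern, at 13.2, 15.1, 13.9 and 13.3 TPM with HuR KD and at 21, 18.2, 30.9 and 21.4 TPM in controls (log2 fold change −0.65, limma adjusted p = 0.163, unadjusted p = 0.00347). Its groups did not overlap. Of 15 human macrophage markers listed, 8 were at 0 in all 8 livers (AIF1, C1QA, C1QB, C1QC, CLEC4F, FCGR1A, MARCO and VSIG4). The 15 summed to 21 to 80.7 TPM with HuR KD and to 39.7 to 161 TPM in controls, nearly all of it LYZ and CTSS. Each of the other markers averaged at most 0.155 TPM. The part of LYZ-expressing cells in the ductal values was not tested.

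**Figure D2:**
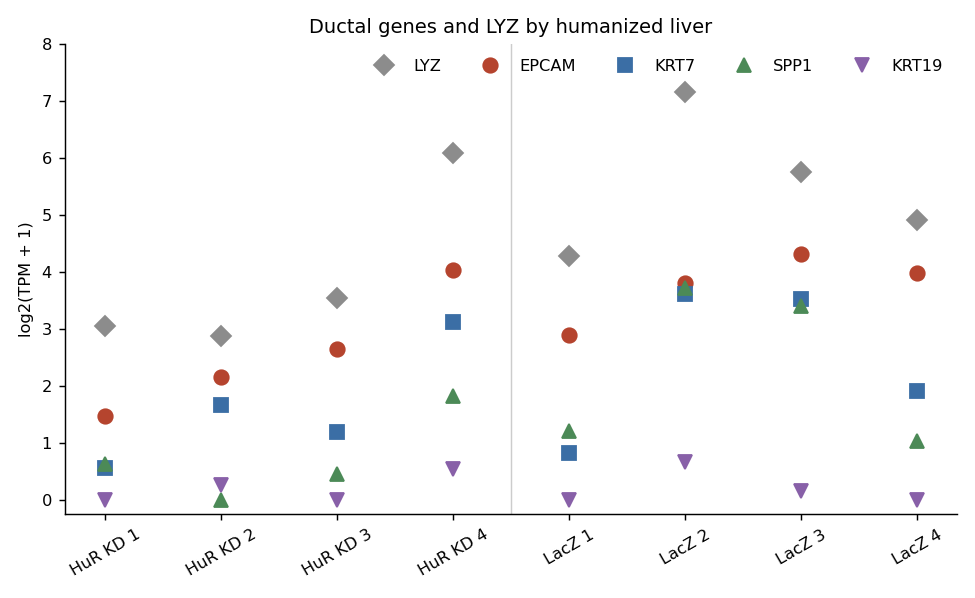
Level, as log2(TPM + 1), of human LYZ (grey), EPCAM, KRT7, SPP1 and KRT19 in each humanized liver, HuR KD on the left and LacZ controls on the right of the line. KRT7, SPP1 and LYZ have their 3 highest values in control 2, control 3 and HuR KD 4.

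By mean level in controls the order of the human genes was PERP, CD24, ALCAM, NID1, EPCAM, KRT7, SPP1, SOX9 and KRT19. The ranges of neighbours in this order overlapped except between NID1 and EPCAM and between SOX9 and KRT19. With HuR KD the order was PERP, ALCAM, NID1, EPCAM, CD24, KRT7, SOX9, SPP1 and KRT19, and only PERP and ALCAM, and ALCAM and NID1, were separate in range. CD24 thus ranked 2 among the controls and 5 with HuR KD.

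The human genes most like CD24 over the 8 humanized livers, by Pearson r of log2(TPM + 1), were RCAN2 (0.98), TM4SF4 (0.98) and LGALS3 (0.98). Those most like PERP were HKDC1 (0.99), TM4SF4 (0.99) and SEL1L3 (0.98), and those most like ALCAM were SLC38A1 (0.98), EDEM2 (0.98) and KCNT2 (0.97). For NID1 they were SUCLG2 (0.98), EDEM2 (0.97) and CAMSAP2 (0.96). TM4SF4 and EDEM2 each came up for a pair of the genes. The points are the same 8 livers for each gene and include the difference between the groups, so these values are a description only.

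In WT livers 1 of the 9 mouse genes was lower and 1 higher by limma at an unadjusted p under 0.05, the threshold of the study. Perp was lower with HuR KD, Alcam was higher, and Cd24a, Nid1, Spp1 and Sox9 did not pass the test. The other 3, Epcam, Krt7 and Krt19, were below a mean of 1 TPM. Among 15090 mouse genes tested by limma, 6.94% were lower and 9.09% higher by this threshold, and 0.888% passed after Benjamini-Hochberg adjustment, as Perp did alone of the 9.

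Perp (ENSMUSG00000019851.8) had a median of 109 TPM (range 102 to 123) with HuR KD and of 139 TPM (130 to 161) in controls. Every HuR KD liver lay below every control, a pattern found in 1.23% of the mouse genes tested. The mean was 111 ± 7.37 against 142 ± 11.9 TPM (SD, n = 6 each), or 78.4% of control. The log2 fold change was −0.35 (95% interval −0.49 to −0.20; limma adjusted p = 0.0380; exact permutation p = 0.00216, the smallest possible). The lower Perp was known when the genes were chosen, so these p-values are not independent of that choice. At the unadjusted threshold the call held under all 21 alternatives, but the limma adjusted p ranged from 0.00574 to 0.122 over them and was under 0.05 in 10. The alternative without genes of the mitochondrial genome repeats the main fit, since these genes took 0% of TPM in the WT libraries.

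Alcam (ENSMUSG00000022636.13) had a median of 28.1 TPM (range 21.6 to 31.7) with HuR KD and of 21.5 TPM (20.0 to 24.7) in controls. HuR KD 3 and 6, at 21.6 and 21.8 TPM, lay inside the range of the controls, and the other 4 lay above it. The log2 fold change was 0.27 (95% interval 0.04 to 0.50), with an unadjusted limma p of 0.0249, an adjusted p of 0.235 and an exact permutation p of 0.0411. The call was lost when HuR KD 1, 4 or 5 or control 3, 4 or 5 was left out (log2 fold changes of 0.22 to 0.25, unadjusted limma p up to 0.0606). No member lay above all controls in every HuR KD liver, a pattern of 1.25% of the mouse genes tested.

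Cd24a (ENSMUSG00000047139.9), the mouse gene for CD24, was low in WT liver, with a median of 2.34 TPM (range 1.77 to 2.55) with HuR KD and of 2.22 TPM (1.48 to 3.29) in controls. The log2 fold change was 0.00 (95% interval −0.29 to 0.29; limma adjusted p = 0.998). The HuR KD livers lay within the range of the controls. Nid1 (ENSMUSG00000005397.8) had medians of 9.35 and 9.49 TPM and a log2 fold change of −0.05 (95% interval −0.23 to 0.14; limma adjusted p = 0.834). These intervals leave room for changes of their own width, so the genes were not shown to stay level.

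Spp1 (ENSMUSG00000029304.14) was the second most abundant of the mouse genes, with medians of 34.9 TPM (range 28.3 to 41.2) with HuR KD and 38.6 TPM (22.4 to 45.3) in controls. Its log2 fold change was −0.06 (95% interval −0.39 to 0.27; limma adjusted p = 0.885). Sox9 (ENSMUSG00000000567.5) had medians of 1.59 and 1.53 TPM and a log2 fold change of 0.23 (95% interval −0.17 to 0.64; limma adjusted p = 0.592). The Sox9 value of control 2, 0.410 TPM, rests on 1 read, and without that library the log2 fold change was 0.11.

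Epcam (ENSMUSG00000045394.9) was at 0.464 to 1.26 TPM with HuR KD and at 0 to 0.967 TPM in controls, with an exact permutation p of 0.0606. Its log2 difference was 0.34, or 0.92 with a pseudocount of 0.1. Krt19 (ENSMUSG00000020911.14) was at 0.406 to 0.911 and 0.244 to 2.74 TPM (exact permutation p = 0.916), and Krt7 (ENSMUSG00000023039.17) at 0.0667 to 0.266 and 0 to 0.228 TPM (exact permutation p = 0.755). The highest Krt19 value and the zeros of Epcam and Krt7 are those of control 2, where they stand for 3, 0 and 0 reads and where 0 allows up to 2.32 TPM of Epcam and 0.722 TPM of Krt7. Differences of these 3 genes were not detected.

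**Figure D3:**
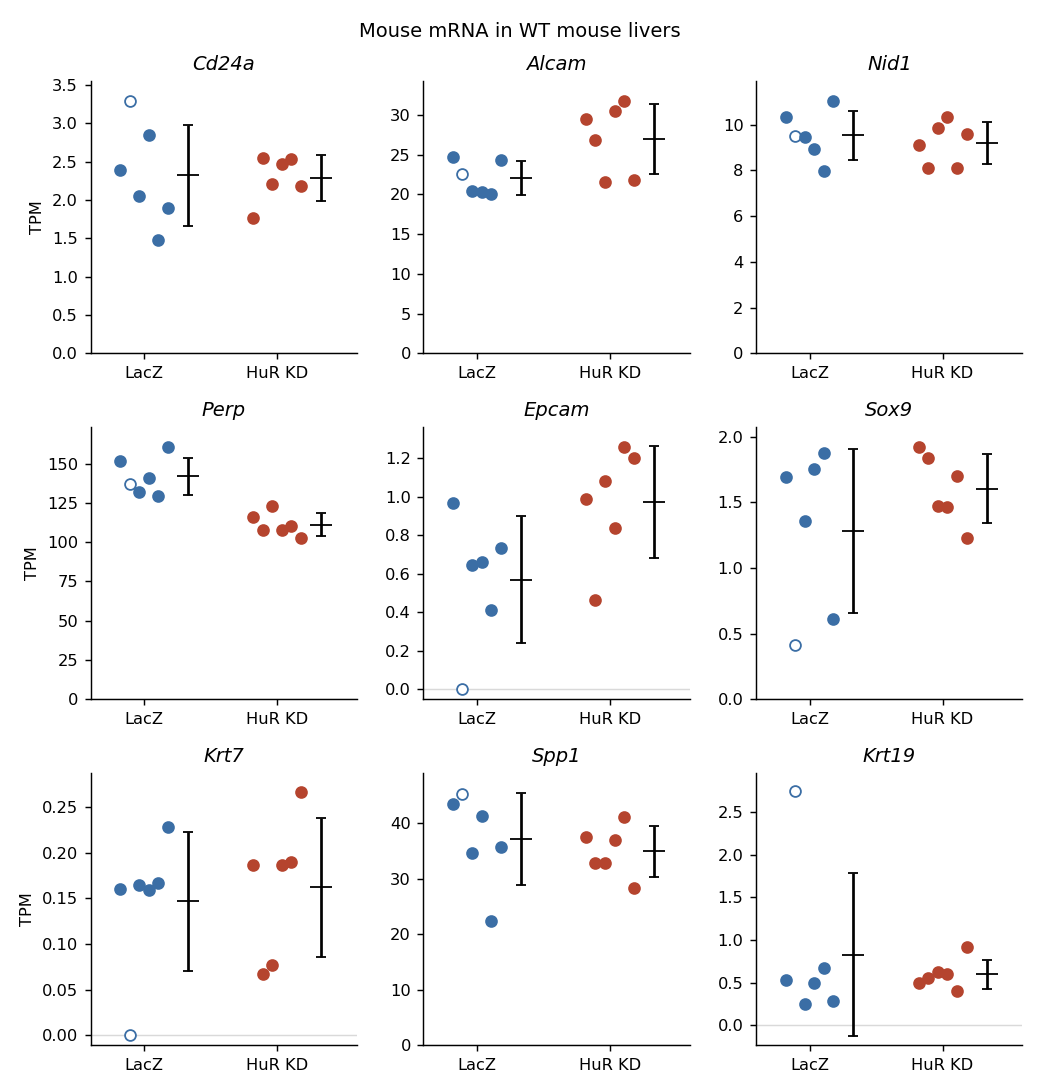
TPM of the 9 mouse genes in WT livers, 1 dot per liver (blue LacZ control, red HuR KD, 6 each; bars are mean and SD; the open dot is control 2, the shallow library). Perp is the gene without overlap of the groups, and 4 of 6 HuR KD livers lie above all controls for Alcam.

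The order of the mouse genes by mean level was Perp, Spp1, Alcam, Nid1, Cd24a and Sox9 in both groups, followed by Epcam, Krt19 and Krt7 with HuR KD and by Krt19, Epcam and Krt7 in controls. In both groups Spp1 and Alcam overlapped in range, as did Cd24a with Sox9, while Perp was separate from Spp1, Alcam from Nid1 and Nid1 from Cd24a. The genes most like Perp over the 12 WT livers were Tmem30a (r = 0.97), C2cd2 (r = 0.97) and Wwp1 (r = 0.96), and those most like Alcam were Plekha5 (r = 0.96), Dhrs13 (r = 0.96) and Agk (r = 0.95). As above, the groups' difference enters these values.

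Set side by side, the log2 differences were −2.65 for CD24 and 0.00 for Cd24a, −1.35 for NID1 and −0.05 for Nid1, −1.07 for ALCAM and 0.27 for Alcam, and −0.96 for PERP and −0.35 for Perp. The difference between the species was not tested, since the human values chose the genes. PERP with Perp was the pair that was lower without overlap in both sets. In controls SPP1 averaged 6.01 TPM in humanized and Spp1 37.2 TPM in WT livers, and CD24 averaged 40.4 against 2.32 TPM for Cd24a. The tables were normalized separately and over the genes of 1 species each, so these levels are not on a common scale.

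**Figure D4:**
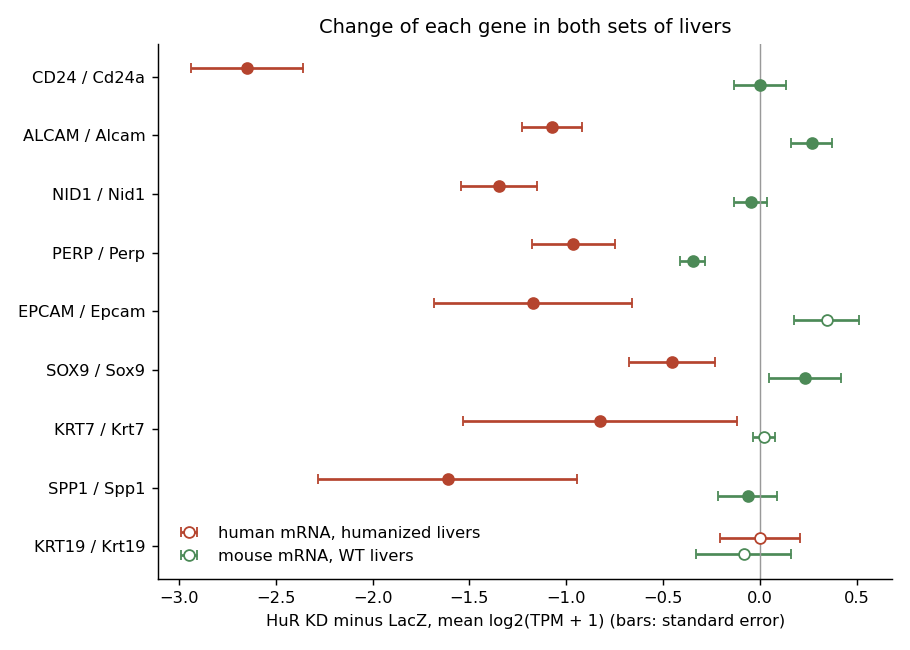
Mean log2(TPM + 1) of HuR KD minus control for each human gene in humanized livers (red) and its mouse counterpart in WT livers (green), with standard errors; open dots are genes below a mean of 1 TPM, whose errors come from the 2 groups alone. The red dots of CD24, SPP1, NID1, EPCAM, ALCAM and PERP lie at −0.96 or lower, those of KRT7, SOX9 and KRT19 closer to 0, and the green dots lie between −0.35 and 0.34.

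Because HuR is known to bind AU-rich elements, the longest annotated 3′ UTR of each mouse gene (GENCODE M21, GRCm38) was searched on the mRNA strand for the motif ATTTA, written in DNA letters, with overlapping matches counted. Alcam held 7 matches, Perp and Cd24a 3 each, Sox9 6, Krt7 13, Spp1 2 and Nid1 1, and Epcam and Krt19 held none. Of 11207 mouse genes whose UTR was 50 bases or longer, 69.8% held at least 1 match, with a median of 2. One stretch each is shown for the gene that was lower (Perp), the gene that was higher (Alcam) and the gene with no difference found (Cd24a) with HuR KD in WT livers, with the motif in capitals. The Perp stretch lies at chr10:18856104-18856132 on the plus strand in exon 3 of 3, that of Alcam at chr16:52251586-52251614 on the minus strand in exon 16 of 16, and that of Cd24a at chr10:43583257-43583285 on the plus strand in exon 2 of 2, all in 3′ UTRs.
Perp: caattctataccATTTAagcttcatttgt
Alcam: aacgtggattgtATTTAagacatatacaa
Cd24a: tcgttactactaATTTAataccgtaagct
The motif was thus present in Perp, Alcam and Cd24a alike. A match describes the letters only, and human UTRs were not searched.

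Related genes outside the 9 were taken from 5 lists of ductal, progenitor, adhesion, basement membrane and p53 target genes, of which 28 of 108 tested human genes were called in humanized livers (21 lower and 7 higher at an unadjusted limma p under 0.05). Over all human genes tested 7.87% were called lower and 3.6% higher, and 0.212% passed after adjustment, none of them in these lists. With median-of-ratios factors the calls over all human genes were 50.5% lower, against 68.7% as reported, while those in the lists were 16 lower and 8 higher.

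Among ductal genes 14 of 29 were tested, 3 lower and 1 higher, with a median log2 fold change of −0.43 against −0.05 over all human genes. BICC1, an RNA-binding protein of tubular epithelia, was at 3.98 ± 1.25 against 13.7 ± 4.78 TPM (SD, n = 4 each), a log2 fold change of −1.54 ± 0.26 (limma adjusted p = 0.0573). PKHD1, which encodes fibrocystin of the primary cilium, had a log2 fold change of −0.68 (adjusted p = 0.278, limma) and the annexin ANXA4 of −0.43 (adjusted p = 0.274, limma). The tight junction claudin CLDN19 was the one called higher, at 1.22 (adjusted p = 0.273, limma), at 2.20 against 0.261 TPM, and it reached a mean of 1 TPM only through its HuR KD livers.

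Among progenitor genes 17 of 30 were tested, 5 lower and 1 higher, with a median of −0.17. SOX4, a transcription factor, was at 2.07 ± 0.654 against 7.04 ± 4.02 TPM (SD, n = 4 each), a log2 fold change of −1.24. PEG10, a gene of retrotransposon origin, was at −1.10 and the neural cadherin gene CDH2 at −0.89, with limma adjusted p-values of 0.262, 0.424 and 0.0906 for these 3 genes. GPC3, a cell-surface proteoglycan of fetal liver, went the other way: it was at 109 ± 42.2 TPM with HuR KD and at 24.6 ± 17.3 TPM in controls (SD, n = 4 each), a log2 fold change of 2.38 (limma adjusted p = 0.168).

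Among adhesion genes 43 of 54 were tested, 8 lower and 2 higher, with a median of −0.16. ITGAV and ITGB1, which encode the alpha V and beta 1 chains of integrins, were at 18.7 ± 2.70 against 44.3 ± 14.4 TPM and at 45.3 ± 7.54 against 90.2 ± 14 TPM (SD, n = 4 each). Their log2 fold changes were −1.14 and −0.98, with limma adjusted p-values of 0.121 and 0.0563. CEACAM1 followed at −0.58 (adjusted p = 0.153, limma), and ITGA5 and the gap junction gene GJB1 were higher, at 0.77 and 0.36 (adjusted p = 0.279 and 0.417, limma). The 8 called lower were 5 without HuR KD 2, and 1 of the 2 called higher was lost without HuR KD 1 or 3 or control 1 or 3.

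Of 10 basement membrane genes tested, out of 28, LAMC1 (−0.49) and DAG1 (−0.67), which encode a laminin chain and dystroglycan, were called lower and the laminin chain LAMB3 (1.47) higher on the log2 scale. Of 24 p53 target genes tested, out of 28, FDXR (−0.52), CCNG1 (−0.43) and TNFRSF10B (−0.36) were called lower and the cell cycle inhibitor CDKN1A (0.81) and EI24 (0.60) higher. The medians of the lists were −0.39 and −0.20. PERP, itself a p53 target, was lower in the same livers, as were FDXR, CCNG1 and TNFRSF10B, while CDKN1A and EI24 were called higher.

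In WT livers 4 of the list genes were called lower and 19 higher (11 lower and 16 higher with median-of-ratios factors). Tested were 11 ductal, 16 progenitor, 48 adhesion, 22 basement membrane and 24 p53 target genes. Over all mouse genes tested, 16.0% were called in either direction. Of 48 adhesion genes tested 16 were higher and 2 lower, beside the 9.09 and 6.94% of all mouse genes, with a median of 0.08 against 0.03 over all. Cldn1, a claudin of tight junctions, was at 52.5 ± 7.26 against 37.2 ± 2.49 TPM (SD, n = 6 each), a log2 fold change of 0.48 ± 0.09, and was the one list gene past adjustment (limma adjusted p = 0.0391, or 0.000317 to 0.112 over 21 alternatives). Itga5 and the tricellulin gene Marveld2 followed at 0.43 each (adjusted p = 0.159 and 0.0809, limma). Vcam1 and Cd81 were the 2 called lower, at −0.41 and −0.25 (adjusted p = 0.206 and 0.199, limma). ITGA5 and Itga5 were called higher in their own sets, and CD81 (−0.45) and Cd81 lower. CEACAM1 was called lower while Ceacam1 was called higher (log2 fold change 0.34). The same held for the adhesion genes DSG2 (−0.53) and Dsg2 (0.21), and for the basement membrane genes DAG1 (−0.67) and Dag1 (0.26).

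None of 11 ductal mouse genes tested, out of 29 listed symbols, was called by limma in WT livers at an unadjusted p under 0.05, and their median log2 fold change was 0.03. Of 16 progenitor genes Lgr4 was higher (0.23) and Axl lower (−0.32), of 22 basement membrane genes Nid2 (0.38), the nidogen paralog of Nid1, and Dag1 (0.26) were higher, and of 24 p53 target genes Pmaip1 was lower (−0.45). Among markers of other cells, 7 of 13 mouse macrophage markers were called lower at the unadjusted threshold, beside 6.94% of all mouse genes tested. None of them passed adjustment, and Clec4f was at −0.75 (limma adjusted p = 0.0613). The macrophage list summed to 644 to 1163 TPM with HuR KD and 907 to 1275 TPM in controls. None of the 14 macrophage markers listed was at 0 throughout. Of 14 stellate cell markers tested, 3 were called lower and 0 higher, and none passed adjustment. The part of either cell type in the change of Perp was not tested.

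**Figure D5:**
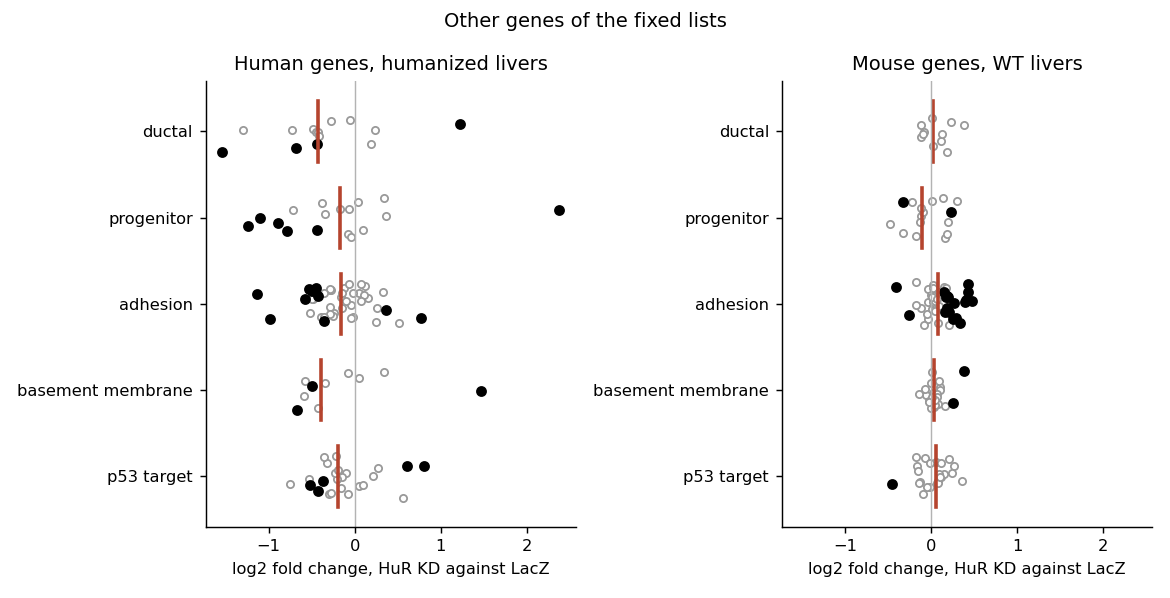
log2 fold change of each tested gene of the 5 lists in humanized (left) and WT livers (right), with filled dots for genes called at an unadjusted limma p under 0.05 and red lines at the list medians. Human genes of the ductal and basement membrane lists have medians of −0.43 and −0.39, and 16 mouse adhesion genes are called higher.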

How the data were processed

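Reads of whole-liver total RNA from 20 mice were, per the labels and the study's methods, trimmed, aligned with HISAT2 (humanized livers against both genomes in 1 index) and counted with featureCounts by the authors, who deposited TPM in 1 table for each set. The human table lists human genes only. The TPM formula and gene lengths are not given in the sources used here. Symbols were matched ignoring case. Reads per gene were recovered as the whole numbers behind the TPM steps, which solved 100% of 18702 human and 25110 mouse genes with values in at least 4 libraries. The recovery was tested on simulated data, where 99.5% of 20111 genes came out right. No count test was run on these reads, since the deposited values are TPM.

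In each table log2(TPM + 1) of genes that averaged 1 TPM or more was compared by limma 3.58.1 in R 4.3.3 (lmFit, eBayes with trend), at an unadjusted p under 0.05 with Benjamini-Hochberg values beside it. For single genes a two-sided exact permutation test ran over 924 (WT) or 70 (HuR in humanized livers) groupings. The fits were tested on simulated data, where of 200 genes moved by 1.5 on the log2 scale they recovered 91% (humanized, 12738 genes) and 99% (WT, 15090 genes) at the unadjusted threshold. After adjustment they recovered 65 and 88.5%. Smaller moves, such as those of Perp and Alcam in WT livers, were not simulated. The labels do not say more of the replicates than that they are separate mice of a group.

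The genes and lists were chosen with earlier results of these data known, including the lower Perp in WT livers. All 9 genes are named. From each list the 3 called genes with the largest change in each direction are named, from marker lists the most abundant and up to 2 called genes in each direction where a result touches them, and for likeness the 3 highest r. Further list genes are named because their counts are small or because they were called in both sets. Alternatives were a pseudocount of 0.1, no filter, a filter at 5 TPM, quantile normalization, median-of-ratios factors, TPM without genes of the mitochondrial genome, eBayes without trend, array weights, a block by replicate number, leaving out each liver, and an adjusted threshold. Leaving out HuR KD 4 with control 2 was added after seeing the data. Python 3.11.15, scipy 1.17.1 and matplotlib 3.10.9 were used.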

Additional observations from a re-analysis of the deposited data

Results flagged for a closer look

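Of 40 groups of values examined, 3 held a liver whose gap to its nearest neighbour was wide for its group (Dixon's test at the 95% level, which chance alone meets in about 1 group in 20). PERP in humanized control 2 was the lowest of its group, at 58.9 TPM from 2715 reads. Krt7 in WT control 2 was the lowest at 0 TPM, and Krt19 in WT control 2 the highest at 2.74 TPM, from 0 and 3 reads in the shallowest library.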

How the results depend on the processing

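Over 519 values recomputed under alternatives, 478 kept their direction and their side of the threshold or stayed within the replicate spread. This total does not measure robustness, since it includes alternatives that cannot move a value. For human genes given without a test, filter changes, eBayes without trend and the replicate block repeat the main log2 difference (CD24 at −2.65 in each). In WT livers TPM without genes of the mitochondrial genome repeats the main fit. At the unadjusted threshold HuR mRNA kept its call under the 17 alternatives run in humanized livers (log2 fold changes of −0.72 to −0.46; adjusted p 0.138 to 0.568; under 5 TPM, so not in the fit with that filter) and the 21 in WT livers (−0.95 to −0.77), as did Perp under its 21 (−0.38 to −0.31). CD24, ALCAM, NID1 and PERP were the 4 human genes lower without overlap with median-of-ratios factors, quantile normalization and TPM without genes of the mitochondrial genome too, and the count was 7 without HuR KD 4 and 7 without the libraries HuR KD 4 and control 2 (4 to 7 over the livers left out). The 2 mouse genes called became 1 with the adjusted threshold and 1 to 2 with livers left out. Cd24a, near 0, changed sign to −0.0035 with median-of-ratios factors and −0.0045 with quantile normalization, and ranged from −0.079 to 0.0789 with livers left out. Spp1 became 0.0604 with array weights and ranged from −0.20 to 5.25e-05 with livers left out.

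Other list genes called went from 28 to 17 in humanized livers without the genes of the mitochondrial genome, and from 23 to 36 in WT livers with array weights. With livers left out these counts ranged from 20 to 39 and from 17 to 26. Adhesion genes called lower in humanized livers went from 8 to 4 without the genes of the mitochondrial genome (5 to 12 with livers left out), and those called higher from 2 to 1 there, without trend and with the replicate block (1 to 2 with livers left out). In WT livers those called lower were 4 with median-of-ratios factors and 4 with quantile normalization in place of 2. The cause was not tested. Same-numbered livers correlated at −0.25 to 0.14 in the humanized and −0.14 to 0.21 in the WT set, so the numbers were not taken as pairs. With the replicate block Perp and Alcam both stayed called. Their log2 fold changes of −0.35 and 0.27 cannot move there, since both groups hold the same numbers. Only 1 of 4 and 2 of 6 livers correlated best with their own number. Depth limits KRT19, SPP1, Epcam, Krt7 and Krt19, which rest on few reads. It also limits human KRT7 and EPCAM in some livers, with 3 and 7 reads in HuR KD 1.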
